A study of Saccharomyces cerevisiae with 6 samples.

Results

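The 38 genes described here encode the nucleoporins of the yeast nuclear pore complex and the karyopherins that carry cargo through it. They were taken from the deposited table by name: genes whose standard symbol is NUP or KAP followed by a number, together with *NSP1*, *ASM4*, *POM34*, *POM152*, *SEH1*, *GLE1*, *GLE2*, *NDC1*, *NIC96*, *CRM1*, *SRP1* and *CSE1*. Earlier results of these data were known when this choice was made. The genes described here are 38 of the 5657 genes in the table, which has 5705 rows, 1 per Affymetrix probe set. Total RNA came from *S. cerevisiae* F12, an engineered industrial yeast used for lignocellulosic ethanol. Cells were taken after 4 h of fermentation in YNB medium, in which glucose was at 20 g/L and ammonium sulfate at 7.5 g/L, either with 0% insoluble solids (IS) or with 40% IS (w/w) given as glass beads. The study hybridized 3 arrays for each condition.

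The study asks which genes change in the presence of IS. That comparison is not made for these genes here. Of the table's values, 1 column was used. Its name is the one limma gives to the mean log2 signal of a probe set over all arrays of a fit, and it was read as the mean over the arrays of both conditions. The table itself does not state which arrays it averages. The other values are the authors' own comparison of the conditions, which was not used, and no values per array were analysed. Each value below is therefore the authors' mean, with no error and no number of replicates of its own, and nothing below says whether a gene was higher or lower with 40% IS. Signals of different probe sets also depend on how well each probe hybridizes, so a larger value for one gene does not mean more transcript than for another.

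The nuclear pore complex is a ring-shaped channel that spans the nuclear envelope. Its scaffold nucleoporins form a coat and an inner ring around the channel, membrane proteins hold the ring in the envelope, and nucleoporins with phenylalanine-glycine (FG) repeats fill the channel. Karyopherins bind the FG repeats and carry proteins inward (importins) or outward (exportins), and the small GTPase Ran, Gsp1 in yeast, gives the transport its direction. Messenger RNA leaves by a separate route, in which the carrier Mex67-Mtr2 passes the pore and the helicase Dbp5 with Gle1 releases it on the cytoplasmic side.

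The array covered the whole set. All 38 genes that carry these symbols in the RefSeq annotation of *S. cerevisiae* were in the table, each with 1 probe set. None of the 38 probe sets had the suffix that marks probes shared between transcripts. None of the 38 genes overlapped another gene of the RefSeq annotation, the only annotation checked. The mean log2 signals of the 38 probe sets ran from 8.01 (*NUP42*) to 10.68 (*SRP1*), with a median of 9.32. Over all 5705 rows they ran from 6.20 to 14.14, with a median of 8.79 and quartiles of 8.03 and 9.74.

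**Figure D1:**
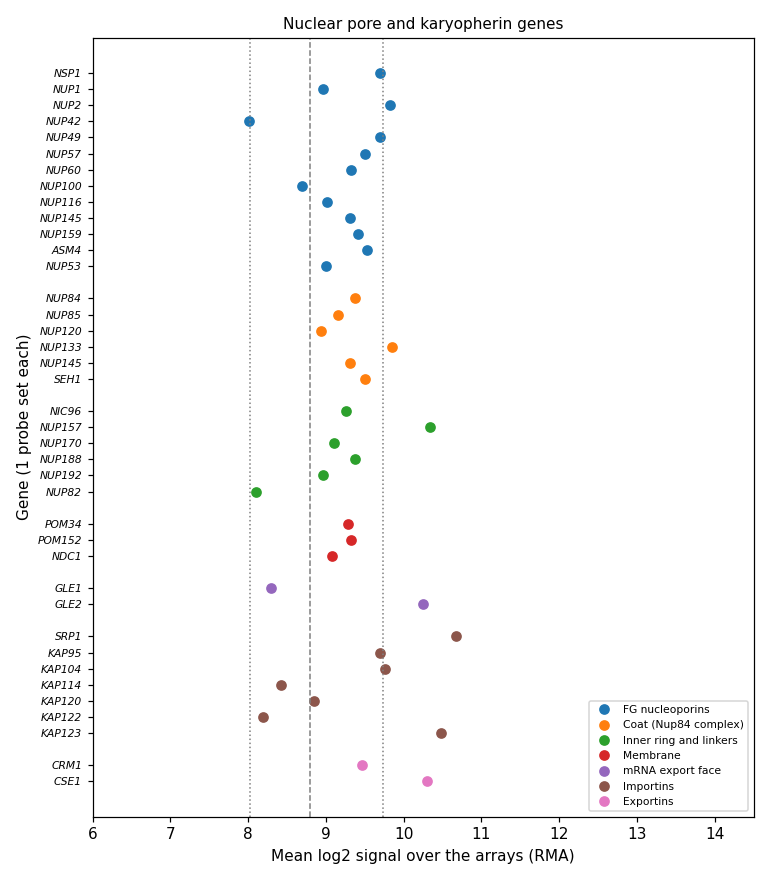
Mean log2 signal of the 38 nuclear pore and karyopherin genes, 1 point per probe set, coloured by role. *NUP145* is shown under both of its roles. From the name of its column, the signal was read as the mean over the arrays of both conditions. The dashed line is the median of all 5705 rows (8.79) and the dotted lines are the quartiles (8.03 and 9.74); the points lie between 8.01 and 10.68, and their order is not an order of transcript abundance.

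The FG nucleoporins were the largest group, with 13 genes and mean log2 signals from 8.01 to 9.83 (median 9.32). Nsp1, Nup49 and Nup57 form the complex of the central channel, and the values of their genes were 9.69 for *NSP1* (YJL041W), 9.70 for *NUP49* (YGL172W) and 9.50 for *NUP57* (YGR119C). *NUP1* (YOR098C), *NUP2* (YLR335W) and *NUP60* (YAR002W) encode proteins of the nuclear side, where the basket is attached. Their signals were 8.96, 9.83 and 9.32. On the cytoplasmic side, *NUP159* (YIL115C), whose product anchors Dbp5, had 9.42 and *NUP42* (YDR192C), whose product binds Gle1, had 8.01. The paralogs *NUP100* (YKL068W) and *NUP116* (YMR047C), which share GLFG repeats, had 8.70 and 9.01. The paralogs *NUP53* (YMR153W) and *ASM4* (YDL088C, synonym *NUP59*), which tie the inner ring to the membrane, had 9.00 and 9.52.

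The coat is built by the Nup84 complex, and its 6 genes of the set had mean log2 signals from 8.94 to 9.86 with a median of 9.34. *NUP145* (YGL092W, 9.30) belongs to both groups, since its product cuts itself into an FG nucleoporin and a coat protein. The others were *NUP84* (YDL116W, 9.38), *NUP85* (YJR042W, 9.16), *NUP120* (YKL057C, 8.94), *NUP133* (YKR082W, 9.86) and *SEH1* (YGL100W, 9.51). *SEC13*, the coat gene that also serves vesicle transport from the endoplasmic reticulum, is not among the 38 genes and had 11.23.

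The group of the inner ring and linkers had 6 genes with signals from 8.10 to 10.33. *NUP82*, of the cytoplasmic side, was counted in this group and gave its lowest signal. *NIC96* (YFR002W), which encodes the linker that anchors the Nsp1 complex, had 9.26. The largest scaffold proteins are encoded by *NUP188* (YML103C, 9.38) and *NUP192* (YJL039C, 8.96). For the paralogs *NUP157* (YER105C) and *NUP170* (YBL079W) the table gave 10.33 and 9.10. *NUP82* (YJL061W), which encodes the platform of the cytoplasmic side, had 8.10. The values of the 3 membrane genes were 9.28 for *POM34* (YLR018C), 9.33 for *POM152* (YMR129W) and 9.08 for *NDC1* (YML031W). Ndc1 is also needed in the spindle pole body. Of the 2 genes of mRNA export in the set, *GLE1* (YDL207W), the activator of Dbp5, had 8.29 and *GLE2* (YER107C), whose product binds Nup116, had 10.25.

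The 7 importin genes had signals from 8.19 to 10.68, with a median of 9.70. *SRP1* (YNL189W) encodes importin alpha, which reads the classical nuclear localization signal, and had 10.68. Its partner importin beta, *KAP95* (YLR347C), had 9.70. *KAP123* (YER110C), whose product imports ribosomal proteins, had 10.48 and *KAP104* (YBR017C), whose product imports mRNA-binding proteins, had 9.76. *KAP114* (YGL241W), whose product imports the TATA-binding protein, had 8.42. The values of *KAP120* (YPL125W) and *KAP122* (YGL016W) were 8.84 and 8.19. Among the exportins, *CRM1* (YGR218W), the carrier for leucine-rich export signals, had 9.46. *CSE1* (YGL238W), whose product returns importin alpha to the cytoplasm, had 10.30.

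A further 5 karyopherins carry a KAP number only as a synonym in the annotation and so fall outside the 38 genes. These were *MSN5* (*KAP142*, 9.74), *MTR10* (*KAP111*, 8.98), *NMD5* (*KAP119*, 8.95), *PSE1* (*KAP121*, 10.76) and *SXM1* (*KAP108*, 9.86). With *LOS1*, the exportin for transfer RNA (9.00), they are part of a list of 23 other genes of nuclear transport, all of which were in the table. The list had mean log2 signals from 8.08 to 12.61 with a median of 9.70. In the Ran system, the values were 12.61 for *GSP1*, 12.32 for *NTF2*, which encodes the importer of Ran, and 11.78 for *YRB1*, which encodes a Ran-binding protein. The second Ran gene, *GSP2*, had 9.66. The Ran GTPase activator *RNA1* had 10.35 and the exchange factor *SRM1* had 9.57. In mRNA export, *DBP5* had 10.40, *MEX67* 9.71 and *MTR2* 9.70. The basket genes *MLP1* and *MLP2* had 8.73 and 8.65.

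**Figure D2:**
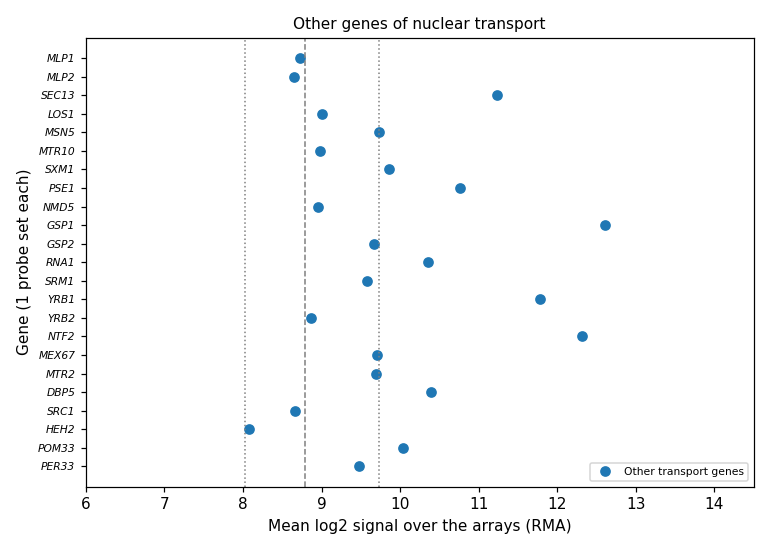
Mean log2 signal of 23 other genes of nuclear transport, 1 point per probe set. The lines are the median (dashed, 8.79) and the quartiles (dotted, 8.03 and 9.74) of all 5705 rows. From the name of its column, the signal was read as the mean over the arrays of both conditions. The points lie between 8.08 (*HEH2*) and 12.61 (*GSP1*), and their order is not an order of transcript abundance.

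Some of the 38 genes lie near each other in the RefSeq annotation, a property that the choice by name did not use. Only genes of that annotation were counted. On the right arm of chromosome V, *NUP157*, *GLE2* and *KAP123* followed each other with 1 annotated gene in each gap. *KAP114* and *CSE1* on the left arm of chromosome VII were also separated by 1 annotated gene. *NSP1* and *NUP192* on the left arm of chromosome X were direct neighbours. These were the 4 pairs of members with at most 2 genes between them. Whether neighbours shared a response to IS was not tested.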

How the data were processed

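Labelled cDNA made from the RNA was hybridized to GeneChip Yeast Genome 2.0 arrays, 3 per condition. The authors normalized the arrays by RMA in Affymetrix Expression Console and tested the conditions in limma. The authors' deposited table has 1 column, used here, that was read from its limma name as the mean log2 signal over all arrays, which the table does not state, and 5 columns of their own comparison (log2 difference, moderated t, p, adjusted p and log-odds), which were not. Another 3 columns were empty. Software versions and how the 5705 probe sets were chosen are not given in the sources used here. The planned limma test needs values per array and was not run. The number of arrays limits the precision of each mean.

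Systematic names were matched to RefSeq (assembly R64) for names and gene order only; 5692 of the 5705 rows matched. The genes were chosen by symbol, and every member is named, grouped by role. The genes and lists were chosen with earlier results of these data known. Summaries were the range, the median and the quartiles, computed with Python 3.11.15, pandas 2.3.3 and numpy 2.4.6, after a check on a simulated table. Protein and promoter sequences were not analysed here.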

Additional observations from a re-analysis of the deposited data

How the results depend on the processing

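The median mean log2 signal of the 38 genes was 9.32. It was the same with the brightest probe set of each gene and without probe sets that several genes can share, because each gene had 1 probe set and none was of that kind, and the mean over the 38 genes was also 9.32. With the 5 karyopherins that have a KAP number as a synonym, an alternative chosen after the data were examined, the median over 43 genes was 9.33. No paired analysis was possible because the column used holds a single value per probe set, not one per array. The conditions were not compared, since no values per array were analysed and the authors' own comparison was left unused, so the alternatives planned for that comparison (limma with trend and robust options, a filter on dim probe sets, a stricter adjusted p and leaving out each replicate) were not run. Counts of FG repeats, which need protein sequences, were not run either. How far the mean signals vary between arrays was not tested.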
